A study of Mus musculus with 12 samples.

Results

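Mbnl2 knockout mice were compared with wild-type mice at baseline, in animals kept as house controls. The comparison uses 6 RNA sequencing libraries of the 12 in the series, chosen by their titles: 3 from house control knockout (KO) mice and 3 from house control wild-type (WT) mice. All mice were males of a 129sv/C57BL/6j background, 4 to 5 months old, and each library came from the dorsal hippocampus of 1 animal. The other 6 libraries, 3 WT and 3 KO from trained mice, entered the same statistical fit and serve below as a second set of animals. The targeted allele, the cells in which it is lost and the training task are not described in the sources used here.

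Muscleblind proteins bind RNA and steer alternative splicing and polyadenylation as neurons, heart and muscle mature. In myotonic dystrophy they are trapped on expanded repeat RNA, and Mbnl2 is the family member best known for its role in the brain. The counts analysed here sum all reads of a gene, so they show changes in transcript amount and cannot show which exons were used.

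The 6 house control libraries held 19737929 to 26524204 counted reads, with 17589 to 18300 genes detected in each. Levels are given as CPM, counts scaled to the TMM-adjusted library size, and 3 counts equal 0.113 to 0.152 CPM, a floor that covers counting error only. A gene was called at an adjusted p under 0.05 in the quasi-likelihood test of edgeR, with the Benjamini-Hochberg adjustment made over the 15622 genes that were tested. Each group had 2 mice of a first series of animal numbers and 1 of a second, replicate 3. Nothing in the labels says how these animals were related or dissected, so p-values measure the spread between these mice. In tissue from many cell types, fewer cells of a type and less RNA per cell cannot be told apart.

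The libraries differed in the other tissues they held, and this split did not follow genotype alone. Choroid plexus epithelium markers, which belong to the fluid-secreting lining of the ventricles beside the hippocampus, had a mean log2 CPM of 2.06, 6.50 and 7.62 in WT replicates 1, 2 and 3 and of 4.98, 1.65 and 5.30 in KO replicates 1, 2 and 3. WT replicate 1 and KO replicate 2 were thus low and the other 4 high. Thalamus markers were highest in WT replicates 2 and 3 and KO replicate 3, at 4.43, 4.85 and 4.78, called thalamus-rich below, against 2.70 to 3.54 in the other 3 libraries. Striatum and septum markers were highest in WT replicate 3 (5.06) and KO replicate 2 (5.40), against 2.53 to 3.29. Oligodendrocyte and myelin markers had means of 6.23, 7.98 and 8.01 in WT replicates 1, 2 and 3. In KO replicates 1, 2 and 3 the means were 6.87, 8.15 and 7.27. Hippocampal pyramidal neuron markers were present in every library, with CA1 means of 4.80 to 5.77 and CA3 means of 5.93 to 6.97, and dentate granule neuron markers ranged from 4.79 to 6.54. Results that rest on these libraries are given with and without WT replicates 2 and 3 and KO replicate 3. That comparison sets 1 WT library against 2 KO libraries and takes the spread of the single WT library to be that of the other groups. It evened out thalamus markers, with a median log2 fold change of KO over WT of 0.06, but not the other tissues. Choroid plexus markers were negative in 20 of 20 with all 6 libraries and positive in 18 of 20 in that fit (median 2.30). Striatum and septum markers had a median of 1.89 and myelin markers of 1.50 in it. Values from that fit are thus not free of other tissue.

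**Figure D1:**
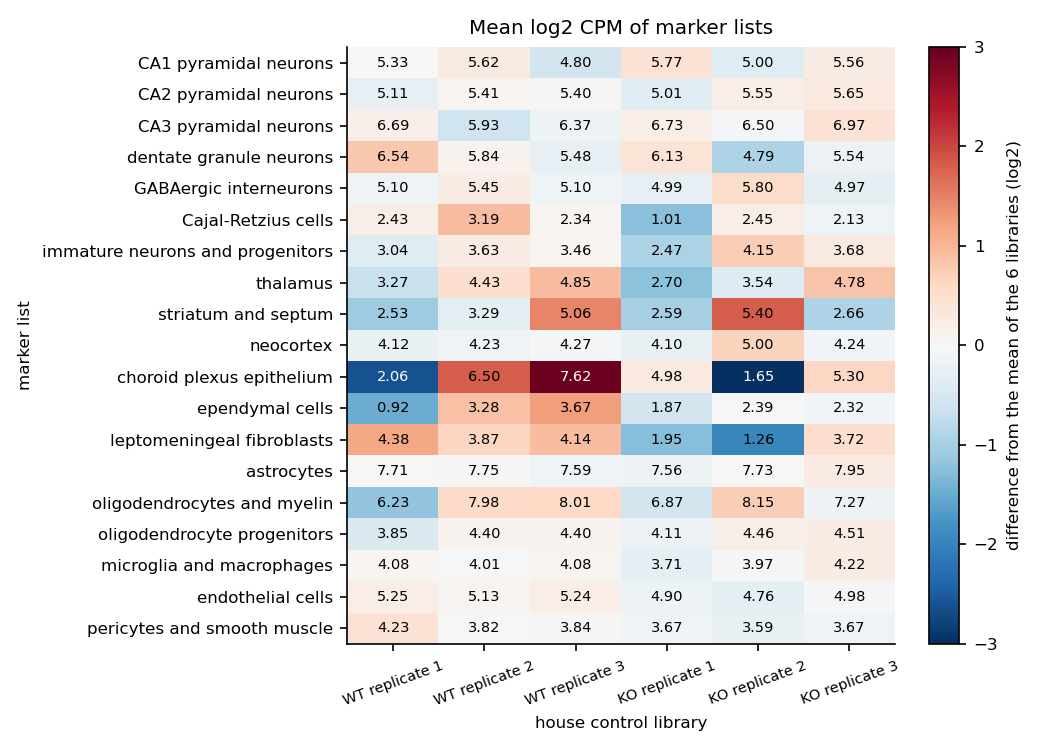
Mean log2 CPM of 19 marker lists (rows) in the 6 house control libraries (columns). Numbers are the means and colour is the difference from the mean of the 6 libraries. Choroid plexus markers span 1.65 to 7.62, while leptomeningeal and endothelial markers are lower in every KO library than in every WT library.

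The gene-level count of Mbnl2 itself was higher, not lower, in the KO-labelled libraries. Mbnl2 (chromosome 14, 120275669 to 120431697, mm10) had 338, 315 and 324 CPM in the WT libraries and 488, 470 and 454 CPM in the KO-labelled libraries, so the groups did not overlap. The log2 fold change was 0.53 (SE 0.07) with an edgeR adjusted p = 0.0888, which missed the threshold, whereas the authors' deposited table gives an adjusted p of 6.26e-08. No loss of Mbnl2 RNA was thus seen in the libraries labelled KO. Which part of the gene the allele removes is not described in the sources used here, so a count over the whole gene does not check the genotype, and directions below are those of the labels. Of its paralogs, Mbnl1 had 78.2, 102 and 106 CPM in WT and 107, 112 and 96.2 CPM in KO-labelled libraries, which overlapped (log2 fold change 0.14, SE 0.11, edgeR adjusted p = 0.661). Mbnl3 stayed between 0.103 and 1.45 CPM in all 6, close to the floor.

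In the house controls 2 genes passed the threshold. Cxadr rose in KO and Anxa6 fell. The product of Cxadr (chromosome 16, 78301489 to 78359774), known as the coxsackievirus and adenovirus receptor, is a transmembrane adhesion protein of the immunoglobulin superfamily found at cell junctions. It had 19.6, 22.0 and 29.1 CPM in the WT libraries and 75.5, 82.2 and 99.8 CPM in the KO-labelled libraries. The groups were far apart, and the fold change was 3.64 (log2 1.86, SE 0.16, edgeR adjusted p = 0.00477). Anxa6 (chromosome 11, 54979108 to 55033445) encodes annexin A6, which binds phospholipid membranes in the presence of calcium. It had 157, 132 and 144 CPM in WT and 76.0, 59.1 and 71.3 CPM in KO-labelled libraries, a 2.09-fold fall (log2 fold change -1.06, SE 0.12, edgeR adjusted p = 0.0258). The called share was 0.0128% of genes (0.00640% in each direction). Beside it, 10.7% had an unadjusted p under 0.05, with 955 genes higher (6.11%) and 713 lower (4.56%). Leaving out single house control libraries moved these shares, and counts below from such fits are to be read beside them. They were 10.9% and 8.09% without WT replicate 1, 4.14% and 2.79% without WT replicate 2, and 4.08% and 2.84% without WT replicate 3. Without KO replicates 1, 2 and 3 in turn they were 5.52% and 3.70%, 6.13% and 3.08%, and 5.63% and 4.51%.

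Both calls depended on which libraries were in the fit, while the fold changes moved little. Without WT replicate 2 both missed the threshold, each with an edgeR adjusted p = 0.0637. Without the 3 thalamus-rich libraries Cxadr had a log2 fold change of 2.01 (edgeR adjusted p = 0.119) and Anxa6 of -1.21 (edgeR adjusted p = 0.855). By DESeq2, 155 of these genes were called higher and 47 lower (0.992% and 0.301%), and the authors' deposited table calls 61 higher and 15 lower of 24394 genes (0.250% and 0.0615%). In that table's 76 calls the 3 KO and 3 WT values never overlapped in CPM, 73 had an edgeR unadjusted p under 0.05, and 58 were also called by DESeq2 here, which is 76.3% of the authors' calls and 28.7% of the DESeq2 calls. Among all genes, 6.94% were higher and 6.09% lower with no overlap between the groups.

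**Figure D2:**
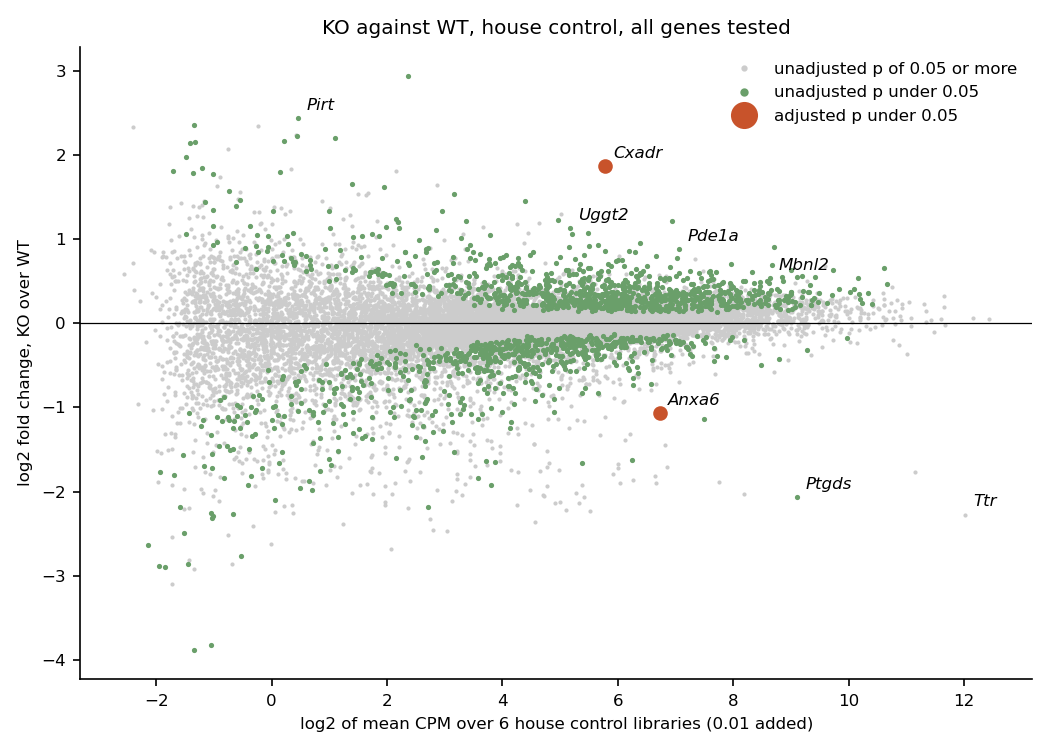
Log2 fold change of KO over WT in house controls against the log2 of mean CPM, 1 point per gene for the 15622 genes tested. The 2 orange points, Cxadr and Anxa6, have an adjusted p under 0.05, green points an unadjusted p under 0.05, and Ttr, a choroid plexus transcript at -2.27, has an unadjusted p above 0.05.

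The 12 genes with the smallest p among those higher in KO included Cxadr and Mbnl2, and none of the 11 other than Cxadr was called by edgeR (adjusted p from 0.0888 to 0.160). The order by p chose these genes, so their house control values are a description. Rasl11b, a small GTPase of the Ras family, had 35.7, 33.7 and 37.8 CPM in WT and 55.7, 56.3 and 57.4 CPM in KO-labelled libraries, a log2 fold change of 0.66. Pde1a, a phosphodiesterase that calcium and calmodulin switch on to break down cyclic nucleotides, had 110, 90.4 and 81.9 CPM in WT and 165, 175 and 178 CPM in KO-labelled libraries (log2 fold change 0.88). Nptx2, a secreted pentraxin that gathers AMPA receptors at synapses, had 45.3, 36.0 and 36.2 CPM in WT and 65.8, 64.1 and 83.3 CPM in KO-labelled libraries (0.86). The 3 KO-labelled libraries lay within 2 CPM of each other for Rasl11b and were more spread for Nptx2, where replicate 3 was highest.

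Apc, the scaffold of the complex that marks beta-catenin for destruction, had 391, 348 and 377 CPM in WT and 521, 577 and 537 CPM in KO-labelled libraries (log2 fold change 0.55). Htr2a, the serotonin 2A receptor, had 8.64, 7.71 and 7.56 CPM in WT and 11.9 to 16.1 CPM in KO-labelled libraries (0.78). Rasal1, which turns off Ras, had 64.5, 49.4 and 42.1 CPM in WT and 102, 99.5 and 81.1 CPM in KO-labelled libraries (0.86). In Rasal1 the WT library nearest to KO was replicate 1, which was also the case for Pde1a and Nptx2. The remaining 4 were Uggt2, a glucosyltransferase that checks protein folding in the endoplasmic reticulum (1.13), Galnt9, which starts O-linked sugar chains (0.64), Brdt, a bromodomain protein best known from testis (0.47), and Ppp2r5b, a regulatory subunit of protein phosphatase 2A (0.33).

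The 12 genes with the smallest p among those lower in KO included mitochondrial, Golgi and signalling genes beside Anxa6, with fold changes from 1.20 to 2.54. Gskip, which binds glycogen synthase kinase 3 beta, another part of the beta-catenin complex, had 30.3, 28.1 and 30.4 CPM in WT and 22.4, 19.7 and 18.3 CPM in KO-labelled libraries (log2 fold change -0.55, edgeR adjusted p = 0.0888). Tomm34, which helps proteins enter mitochondria, had 107, 88.1 and 98.4 CPM in WT and 70.1, 61.0 and 64.4 CPM in KO-labelled libraries (-0.59). Crtc2, a coactivator of the transcription factor CREB, had 21.5, 23.9 and 23.8 CPM in WT and 15.9, 16.7 and 15.6 CPM in KO-labelled libraries (-0.52). Within each of these genes the KO-labelled libraries were close together and all lay below the lowest WT library.

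Fundc2, an outer mitochondrial membrane protein, had a log2 fold change of -0.40, Sdf4, a calcium-binding protein of the Golgi, -0.39, and Cog7, a subunit of a Golgi tethering complex, -0.26. Mylk, the kinase of myosin light chain in smooth muscle, had 33.5, 40.1 and 31.0 CPM in WT and 25.2, 20.1 and 25.1 CPM in KO-labelled libraries (-0.57). The small heat shock gene Hspb1 (-0.98) and Itprip (-1.35), whose product interacts with the inositol trisphosphate receptor, were lowly expressed, at no more than 8.22 and 4.38 CPM. The set also held Scrn3 (-0.32) and H2-Ke6 (-0.46), a hydroxysteroid dehydrogenase gene. Other genes share 86.4% of the exon bases of H2-Ke6, and since no source used here says whether reads were counted by strand, its count is uncertain. The adjusted p of the 11 other than Anxa6 ran from 0.0888 to 0.228 by edgeR. DESeq2 called 12 of the 12 higher and 11 of the 12 lower genes, and the authors' deposited table called 12 and 4 of them.

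**Figure D3:**
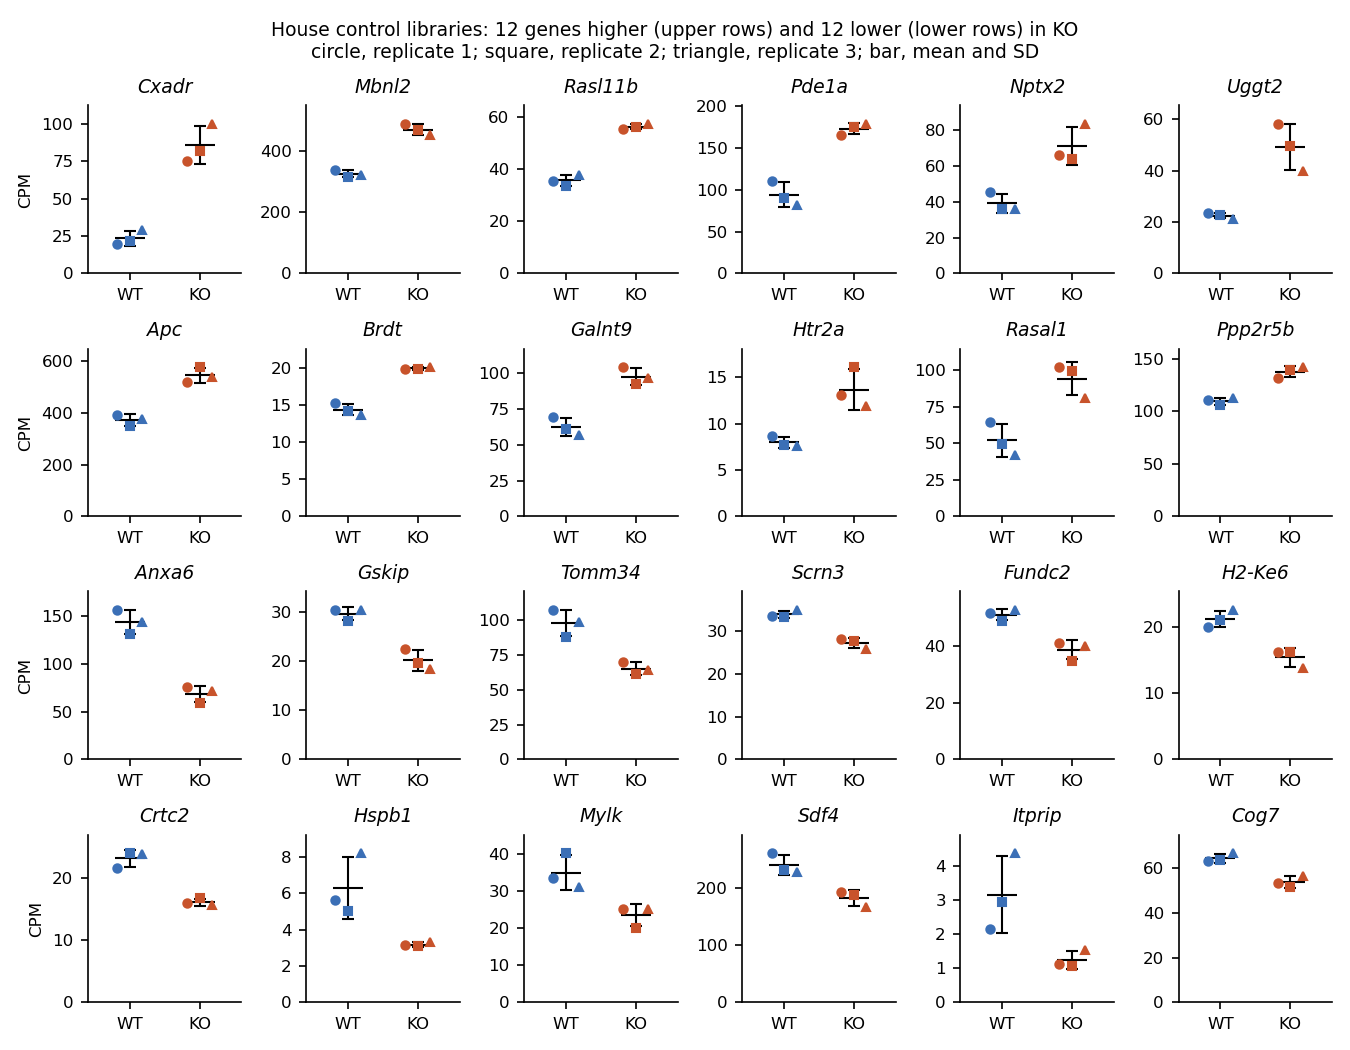
CPM in each house control library for the 12 genes with the smallest p in each direction, each panel starting at 0. Points are libraries, with bars for the mean and SD of 3, and in each panel the 3 WT and 3 KO points do not overlap, which the choice of genes required.

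The genes were chosen on the house control difference, though their order by p rests on a spread estimated from all 12 libraries. The trained mice, whose own difference between genotypes was not used in the choice, gave the same sign for 23 of the 24, against 65.5% of all genes. An unadjusted edgeR p under 0.05 in that sign was reached by 12 of the 12 higher and 8 of the 12 lower genes, where 3.74% of all genes were higher and 2.71% lower at that level. The spread of a gene came from 1 fit for both comparisons, so these trained p-values are not independent of the choice. Cxadr had means of 19.3 and 90.9 CPM in trained WT and KO-labelled mice (log2 fold change 2.23), and Anxa6 of 151 and 70.0 CPM (-1.11). Uggt2 (1.15), Galnt9 (0.64), Htr2a (0.74) and Tomm34 (-0.69) were of similar size to the house control values. Mylk was the exception, at 0.08 in trained mice, and H2-Ke6 (-0.14), Hspb1 (-0.28) and Itprip (-0.16) had trained groups that overlapped.

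The test of the difference between the 2 genotype effects called 0 of 15622 genes by edgeR, with 235 at an unadjusted p under 0.05 (1.50%). Among the 24 genes 6 were at that level, in order of p Mylk, Itprip, H2-Ke6, Hspb1, Brdt and Nptx2. In all 6 the house control effect was the larger one, as in 18 of the 24, and since house control values chose the genes this count is a description.

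**Figure D4:**
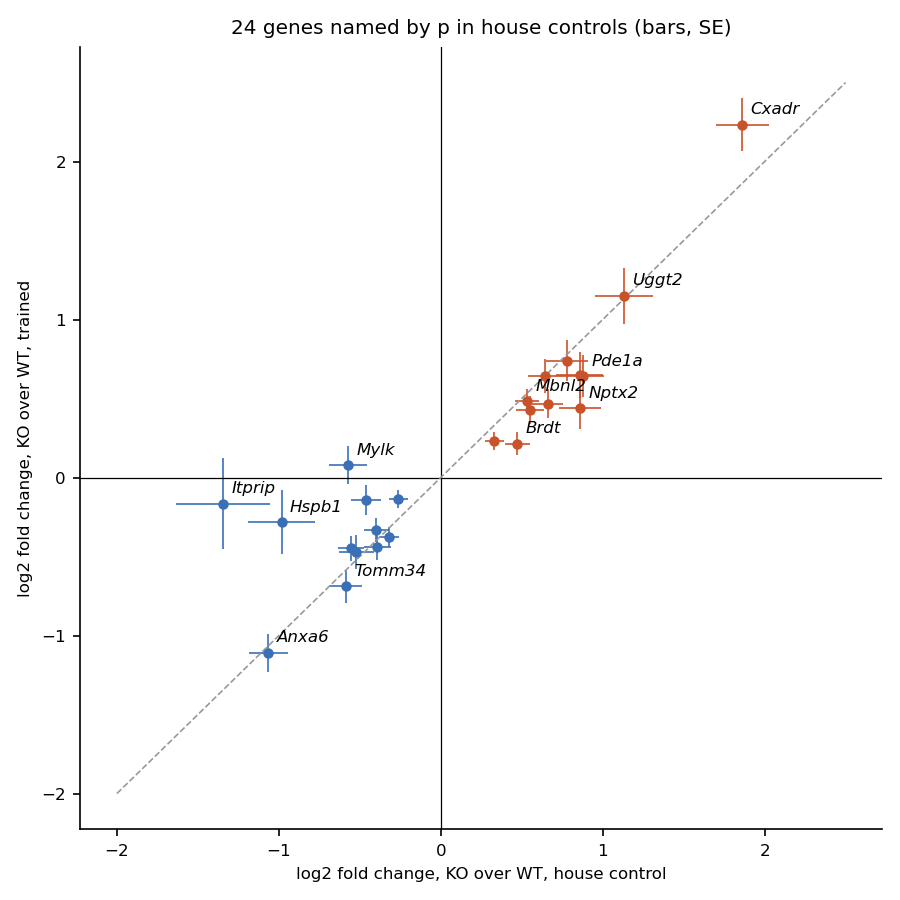
Log2 fold change of KO over WT in house controls (horizontal) and in trained mice (vertical) for the 24 genes, with SE bars and a dashed line of equal effect. Orange genes were chosen as higher and blue as lower in house controls, and Mylk alone changes sign.

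Ordering by size of change, among genes with a mean from 1 CPM up, non-overlapping groups and an unadjusted edgeR p under 0.05, brought in genes of low expression. Pirt, which modulates sensory TRP channels, had 0.566, 0.491 and 0.207 CPM in WT and 2.72, 1.37 and 2.80 CPM in KO-labelled libraries (log2 fold change 2.44, edgeR adjusted p = 0.160) and 1.41 in trained mice. Sytl4, which docks secretory granules, had 1.23, 1.44 and 1.12 CPM in WT and 2.30, 2.86 and 6.80 CPM in KO-labelled libraries (1.65). The calcium channel gene Trpv6 (1.80) was at 3.47 CPM in KO replicate 2 and below 1 CPM in the other 5.

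In the other direction the 5 largest changes under the same limits were in genes known from the meninges or from mesenchymal cells. Ptgds, the prostaglandin D synthase of meninges and choroid plexus, had 963, 821 and 891 CPM in WT and 103, 169 and 367 CPM in KO-labelled libraries (log2 fold change -2.07, edgeR adjusted p = 0.321). Slc22a6, an organic anion transporter, had 19.1, 7.08 and 5.87 CPM in WT and 1.13, 1.18 and 4.82 CPM in KO-labelled libraries (-2.18). Wnt6 (-2.09), the retinoic acid carrier Crabp2 (-1.98) and the mesenchymal factor Foxc2 (-1.95) showed the same order, with KO replicate 3 the nearest to WT in each of the 5. None was called by edgeR, and in trained mice their log2 fold changes lay between -0.42 and 0.05.

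Markers of leptomeningeal fibroblasts, the cells of the membranes around the brain, leaned the same way. Ptgds, Slc22a6 and Crabp2 from above are themselves among these markers, which are thus not a separate set of genes. All 18 tested had a negative log2 fold change, 7 with an unadjusted edgeR p under 0.05 (4.56% of all genes were lower at that level), and the median was -1.64, against -0.00 over all genes, 49.8% of which were positive. Their mean log2 CPM was 4.38, 3.87 and 4.14 in WT and 1.95, 1.26 and 3.72 in KO-labelled libraries. Ogn, an extracellular matrix proteoglycan, had 19.9, 15 and 24.9 CPM in WT and 10.7, 2.21 and 6.37 CPM in KO-labelled libraries (-1.64). In trained mice the list's median was -0.17 with 5 of 18 positive. Slc47a1 and Asgr1, of the same list, were at 0 in at least 1 library. The size of the difference depended on single KO-labelled libraries. Without KO replicate 1 or 2 the median was -1.21, with 2 and 3 of 18 at an unadjusted p under 0.05, and without KO replicate 3 it was -2.58 with 16 of 18. Without the thalamus-rich libraries, KO replicate 3 among them, it was -2.85 with 15 of 18, where 2.77% of all genes were lower. All 18 were negative in each of these fits.

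Markers of blood vessels leaned lower in KO house controls too. Of 12 endothelial markers 11 were negative, 6 were lower at an unadjusted edgeR p under 0.05 (4.56% of all genes) and the same number did not overlap between the groups (6.09% of all genes were lower without overlap). The median was -0.36, and the 6 became 2 without KO replicate 2 and 3 without KO replicate 1. Their mean log2 CPM was 5.25, 5.13 and 5.24 in WT and 4.90, 4.76 and 4.98 in KO-labelled libraries. Pecam1, the adhesion molecule of endothelial junctions, had 24.5, 20.1 and 23.5 CPM in WT and 17.5, 17.4 and 18.9 CPM in KO-labelled libraries (log2 fold change -0.34, edgeR adjusted p = 0.321). Kdr, the main receptor of vascular endothelial growth factor, had 22.8, 22.0 and 33.2 CPM in WT and 17.4, 13.5 and 17.3 CPM in KO-labelled libraries (-0.69). The sialomucin gene Emcn (-0.79) and the transporter gene Slco1a4 of the blood-brain barrier (-0.37) did not overlap either.

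Among 11 markers of pericytes and smooth muscle 4 were lower at an unadjusted edgeR p under 0.05 and 0 higher, against 4.56% and 6.11% of all genes (median -0.26). Without WT replicate 1, which had the highest mean of these markers, 1 was lower and the median was -0.16, and without KO replicate 2 the count was 2. Vtn, or vitronectin, had 113, 73.7 and 76.5 CPM in WT and 57.1, 54.8 and 67.1 CPM in KO-labelled libraries (log2 fold change -0.55), and Kcnj8, a potassium channel of pericytes, had 4.06, 4.49 and 4.05 CPM in WT and 3.10, 3.20 and 2.75 CPM in KO-labelled libraries (-0.48). In trained mice the endothelial median was -0.06 and the pericyte median 0.09. The difference between house control and trained effects reached an unadjusted p under 0.05 for Vtn and not for Kdr. Without the thalamus-rich libraries the 2 house control medians were -0.45 and -0.44. Leptomeningeal and vessel means were both lower in the 3 KO-labelled libraries, and their part in the vessel values was not tested.

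Immune and matrix genes leaned the same way. Of 31 genes of interferon response and antigen presentation 3 were positive and 3 were lower at an unadjusted edgeR p under 0.05 (4.56% of all genes, median -0.43, and median 0.01 in trained mice). The 3 became 0 without WT replicate 2, WT replicate 3 or KO replicate 1, 9 without WT replicate 1 and 8 without KO replicate 3, with medians from -0.71 to -0.26. Cd74, the invariant chain of class II antigen presentation, had 12.1, 12.3 and 19.0 CPM in WT and 3.47, 2.40 and 6.22 CPM in KO-labelled libraries (log2 fold change -1.85, SE 0.92), with an edgeR adjusted p = 0.496 and 0.00217 in the authors' deposited table. Collagens and laminins had a median of -0.21, with 23 of 31 negative and Lamb2, a laminin of basement membranes, at -0.43. Among 15 microglia and macrophage markers 2 were higher and 2 lower at an unadjusted edgeR p under 0.05 (6.11% and 4.56% of all genes). The higher ones were Csf1r (0.27) and Cx3cr1 (0.23), receptors of parenchymal microglia. Mrc1, a marker of the macrophages at vessels and meninges, had 10.2, 4.94 and 7.31 CPM in WT and 2.76, 1.79 and 5.16 CPM in KO-labelled libraries (-1.21), and Pf4, a chemokine gene, was at -1.33.

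Genes of neuronal excitability and synaptic transmission leaned higher in KO. In the presynaptic vesicle and release list 46 of 53 genes were positive, 16 were higher and 1 lower at an unadjusted edgeR p under 0.05 (6.11% and 4.56% of all genes), and the median log2 fold change was 0.25. Rims1, an active zone scaffold, had 134, 86.4 and 99.2 CPM in WT and 149, 181 and 151 CPM in KO-labelled libraries (0.59). Sv2b, a vesicle glycoprotein, had 376, 225 and 334 CPM in WT and 479, 489 and 537 CPM in KO-labelled libraries (0.69). Syngr1, a vesicle membrane protein, had 459, 329 and 375 CPM in WT and 512, 569 and 562 CPM in KO-labelled libraries (0.50). Unc13b, which primes vesicles, had 33.0, 33.8 and 34.7 CPM in WT and 41.4, 39.8 and 39.4 CPM in KO-labelled libraries (0.25). In the first 3 of these the WT library nearest to KO was replicate 1.

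The mean log2 CPM of the presynaptic list was 7.85 in WT replicate 1, against 7.46 and 7.54 in WT replicates 2 and 3 and 7.85 to 7.87 in the KO-labelled libraries. Without the thalamus-rich WT replicates 2 and 3 and KO replicate 3 the median was -0.02, with 24 of 53 positive. Choroid plexus, striatum and myelin markers leaned higher in KO there, so that value is not free of other tissue. Without WT replicate 1 instead, the median was 0.44. In that fit 35 of the 53 were higher at an unadjusted edgeR p under 0.05, where 10.9% of all genes were. Leaving out any other single house control library gave 12 to 19 higher and medians from 0.18 to 0.30. In trained mice the median was 0.03. The presynaptic list was lowest in WT replicates 2 and 3, where choroid plexus, thalamus and myelin markers were highest among the WT libraries. Among the KO-labelled libraries it was as high in replicate 3, which was thalamus-rich, as in the others. It was 7.85 in KO replicate 2, where myelin markers were highest. With the choroid plexus, thalamus and striatum marker means as covariates the median was 0.24, with 43 of 53 positive and 22 higher, where 9.20% of all genes were higher.

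Markers of neuron types differed between the libraries as well. CA3 pyramidal neuron markers had a mean log2 CPM of 6.69, 5.93 and 6.37 in WT and 6.73, 6.50 and 6.97 in KO-labelled libraries, and a median difference of 0.36 on the log2 scale, with 7 of 9 positive. Like the presynaptic list, they were lowest in WT replicates 2 and 3 among the WT libraries, and without the thalamus-rich libraries their median was -0.15. Dentate granule neuron markers had means of 6.54, 5.84 and 5.48 in WT and 6.13, 4.79 and 5.54 in KO-labelled libraries, with 13 of 15 negative, 2 lower at an unadjusted edgeR p under 0.05 (4.56% of all genes) and a median of -0.33. With the 3 marker means as covariates 12 of 15 were lower at that level, where 7.52% of all genes were lower. The median was -0.06 without KO replicate 2 and 0.02 without WT replicate 1. In trained mice 0 of 15 were positive (median -0.51). The part of these neuron types in the synaptic and channel lists was not tested.

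Calcium and potassium channels showed a similar pattern over the libraries. Sodium channels shared it among the WT libraries, with replicate 1 the highest, and departed from it in KO replicate 3. Of 18 voltage-gated calcium channel genes 16 were positive and 6 higher at an unadjusted edgeR p under 0.05 (6.11% of all genes), with a median of 0.31. The median was 0.04 without the thalamus-rich libraries. With the 3 marker means as covariates it was 0.23 with 11 higher, where 9.20% of all genes were higher. Leaving out 1 library gave 3 higher without WT replicate 2, WT replicate 3 or KO replicate 1 and 12 without WT replicate 1, with medians from 0.17 to 0.53. Cacna2d3, an auxiliary subunit, had 112, 75.8 and 102 CPM in WT and 124, 140 and 156 CPM in KO-labelled libraries (0.54). Cacna1i, a pore of low-threshold T-type current, had 52.9, 50.8 and 46.4 CPM in WT and 95.9, 101 and 55.0 CPM in KO-labelled libraries (0.75), with KO replicate 3 close to WT. Of 50 potassium channel genes 39 were positive and 10 higher (median 0.20, 0.01 without those libraries and 0.12 with the covariates). Leaving out 1 library gave 6 higher without WT replicate 2 and 16 without WT replicate 1. Kcnq5, a subunit of the M-type current that damps repetitive firing, had 87.2, 51.0 and 83.8 CPM in WT and 122, 134 and 131 CPM in KO-labelled libraries (0.80, edgeR adjusted p = 0.228). Kcnn1, a calcium-activated potassium channel, had 13.1, 14.3 and 14.8 CPM in WT and 16.7, 18.8 and 17.9 CPM in KO-labelled libraries (0.34, and 0.35 in trained mice). Voltage-gated sodium channels had 5 of 9 positive and a median of 0.12, which was -0.11 without the thalamus-rich libraries and 0.05 with the covariates. Without WT replicate 1 these channels had a median of 0.32, with 7 of 9 positive. Their mean log2 CPM was 7.68, 7.33 and 7.47 in WT and 7.63, 7.62 and 7.46 in KO-labelled libraries. KO replicate 3 thus lay below WT replicates 1 and 3.

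Receptors and their scaffolds had similar medians. Of 18 ionotropic glutamate receptor genes 16 were positive, 3 higher and 1 lower at an unadjusted edgeR p under 0.05 (6.11% and 4.56% of all genes, median 0.25). Grin1, the obligatory NMDA receptor subunit, had 533, 425 and 393 CPM in WT and 652, 519 and 573 CPM in KO-labelled libraries, which overlapped (0.37). Gria3, an AMPA receptor subunit, had 233, 191 and 171 CPM in WT and 249, 238 and 238 CPM in KO-labelled libraries (0.28), and the lower member was Grin3b, at 1.28 CPM or less (-0.85). Of 33 postsynaptic scaffold and adhesion genes 32 were positive and 5 higher (median 0.24), among them Dlg2 (0.36), a scaffold of the PSD-95 family, Nrxn3 (0.37), Nlgn1 (0.39) and Anks1b (0.26). Without the thalamus-rich libraries the medians of these 2 lists were 0.01 and 0.04, and with the covariates 0.20 and 0.17. Without WT replicate 1 the higher members were 9 and 17, and without WT replicate 2 they were 1 and 1. GABA receptor and synthesis genes had a median of 0.20 and metabotropic glutamate receptors of 0.15, with 1 of 19 and 0 of 7 higher (5.26% and 0%, against 6.11% of all genes). These medians were -0.01 and -0.04 without the thalamus-rich libraries and 0.11 and 0.06 with the covariates.

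Genes that neurons switch on with activity were taken as a rapid and a delayed list, whose difference was not tested. Of 28 rapid activity-induced genes 2 were higher and 1 lower at an unadjusted edgeR p under 0.05. These were 7.14% and 3.57%, close to the 6.11% and 4.56% of all genes. The median was 0.05, and 0.20 in trained mice, and leaving out 1 library moved it from -0.01 (KO replicate 1) to 0.18 (WT replicate 3). Nr4a1, an orphan nuclear receptor, had 24.4, 31.5 and 29.7 CPM in WT and 46.4, 43.7 and 37.2 CPM in KO-labelled libraries (0.57), and Dusp5, a phosphatase of nuclear ERK, 7.30, 6.41 and 9.71 CPM against 10.9, 12.1 and 11.2 CPM (0.55). Btg2, an antiproliferative gene, had 24.5, 20.4 and 17.6 CPM in WT and 17.3, 9.83 and 12.7 CPM in KO-labelled libraries (-0.65). Of 32 delayed activity-induced genes 24 were positive, 4 higher and 0 lower (12.5% higher, against 6.11% of all genes, median 0.24), with Nptx2 and Rasl11b among the higher. Without the thalamus-rich libraries that median was 0.17, and in trained mice 0.16. Leaving out 1 library moved it from 0.12 (WT replicate 2) to 0.36 (WT replicate 1).

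Neuropeptides and their processing proteins had a median of 0.25, with 19 of 24 positive and 3 higher at an unadjusted edgeR p under 0.05 (6.11% of all genes). Chga, a granin of dense-core vesicles, had 99.4, 89.9 and 88.7 CPM in WT and 102, 128 and 147 CPM in KO-labelled libraries (0.44). Cck, or cholecystokinin, had 249, 201 and 187 CPM in WT and 304, 265 and 283 CPM in KO-labelled libraries (0.42). The median of this list rested on KO replicate 2, where the mean log2 CPM was 4.75 against 3.86 and 4.04 in the other KO-labelled libraries and 4.02 to 4.38 in WT. Without it the median was 0.05 with 12 of 24 positive. The median was 0.37 without the thalamus-rich libraries, a fit that keeps KO replicate 2, and 0.17 with the covariates and 0.25 in trained mice. Proteoglycans of the perineuronal net and matrix had 12 of 14 positive (median 0.21, and 0.17 without those libraries). Ncan, or neurocan, had 210, 204 and 153 CPM in WT and 313, 257 and 351 CPM in KO-labelled libraries (0.70, edgeR adjusted p = 0.295, and 0.0434 in the authors' deposited table).

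**Figure D5:**
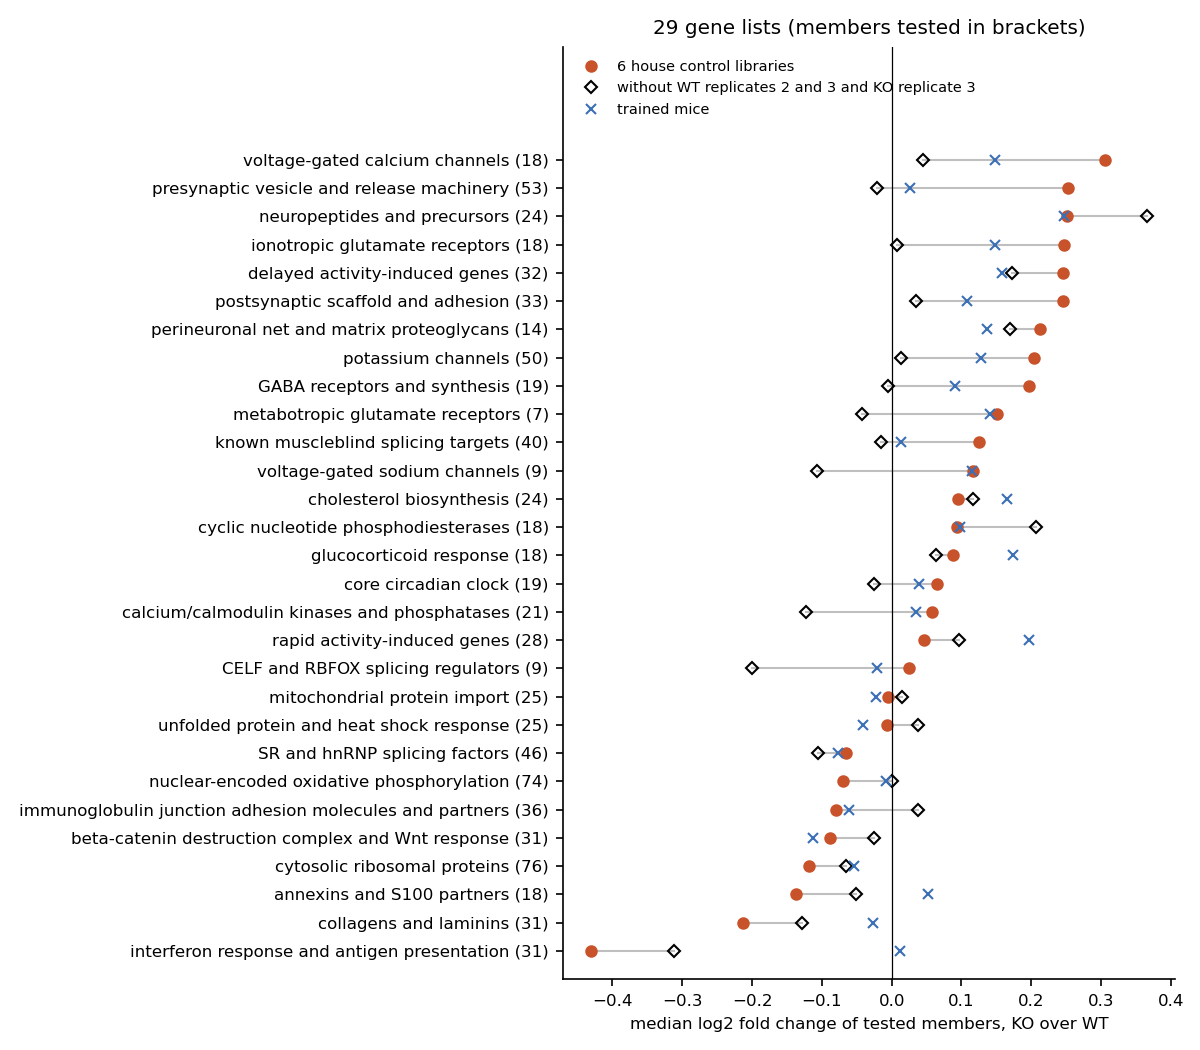
Median log2 fold change of KO over WT for the tested members of 29 gene lists (rows): orange circles for all house control libraries, open diamonds without WT replicates 2 and 3 and KO replicate 3, and blue crosses for trained mice. The diamonds of the presynaptic, calcium channel and potassium channel lists sit between -0.02 and 0.04, and those of neuropeptides (0.37, a value that rests on KO replicate 2) and delayed activity-induced genes (0.17) lie further to the right.

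Genes known from muscleblind splicing studies leaned slightly higher in amount. Of 40 known targets 34 were positive, 8 higher and 1 lower at an unadjusted edgeR p under 0.05, against 6.11% and 4.56% of all genes (median 0.13, -0.02 without the thalamus-rich libraries and 0.09 with the covariates). Without WT replicate 1 the higher members were 17, and without WT replicate 3 the median was 0.06. Clcn1, the chloride channel whose missplicing causes myotonia, had 1.18, 1.23 and 0.991 CPM in WT and 2.59, 4.04 and 1.93 CPM in KO-labelled libraries (1.33), and 1.13 in trained mice. CELF and RBFOX splicing regulators, which act on many of the same exons, had 0 of 9 members at such a p and a median of 0.02. Of 46 SR and hnRNP factors 3 were higher and 2 lower at such a p, close to the 6.11% and 4.56% of all genes. By sign this list leaned lower, with 31 of 46 negative and a median of -0.06, and 36 negative in trained mice. Khdrbs3, a neuronal STAR-family splicing factor (0.38), and Elavl3 (0.24) were among the higher members. Hnrnpk was among the lower (-0.19 in the authors' deposited table).

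The lists of relatives of the 2 called genes hold the called genes themselves as members. Among 36 immunoglobulin junction adhesion molecules and partners 4 were higher, Cxadr itself among them, and 4 lower at an unadjusted edgeR p under 0.05. Of all genes 6.11% were higher and 4.56% lower, and the list's median was -0.08. Ocln, the tight junction protein occludin, had 16.2, 24.6 and 28.1 CPM in WT and 15.5, 10.4 and 14.5 CPM in KO-labelled libraries (-0.77), and Pvrl1, or nectin-1, was at 0.46 and called in the authors' deposited table (adjusted p = 0.0174). Among 18 annexins and S100 partners 0 were higher and 2 lower, Anxa6 and S100a11 (-0.98). Of 31 genes of the beta-catenin destruction complex and Wnt response 3 were higher and 4 lower. Apc was among the higher and Gskip among the lower, with Tcf7l1, a repressor of Wnt targets, at -0.63 and Csnk1d, a casein kinase, at -0.23.

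Cyclic nucleotide phosphodiesterases had 5 of 18 members higher and 0 lower at an unadjusted edgeR p under 0.05, against 6.11% and 4.56% of all genes (median 0.09). Without KO replicate 2 the median was -0.03 with 9 of 18 positive, and without KO or WT replicate 3 the higher members were 3. Without the thalamus-rich libraries the median was 0.21. Beside Pde1a the 5 higher members included Pde4a, at 116, 95.5 and 86.3 CPM in WT and 122, 129 and 125 CPM in KO-labelled libraries (0.34). Pde4d (0.37) and Pde2a (0.37) were also among them. Other genes share 64.3% of the exon bases of Pde2a, so its count is uncertain. Among 18 genes of the glucocorticoid response Hif3a stood apart, with 2.93, 6.06 and 4.17 CPM in WT and 7.78, 11.8 and 13.9 CPM in KO-labelled libraries (1.33, edgeR adjusted p = 0.200). The authors' deposited table gives it an adjusted p of 0.0359, and its log2 fold change in trained mice was 0.49. The list's median was 0.09, with 1 of 18 higher.

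Housekeeping lists had small median differences. Of 76 cytosolic ribosomal protein genes 72 were negative, and 10 were lower and 0 higher at an unadjusted edgeR p under 0.05 (4.56% and 6.11% of all genes). The groups did not overlap for 18, all lower, against 6.09% of all genes. The median was -0.12, and -0.07 without the thalamus-rich libraries with 54 of 76 negative. The lower members were 2 without WT replicate 2 or KO replicate 3 and 16 without KO replicate 2. Rpl18 had 43.0, 43.7 and 46.1 CPM in WT and 38.1, 39.3 and 35.9 CPM in KO-labelled libraries (-0.23). Nuclear-encoded oxidative phosphorylation genes had 64 of 74 negative, 4 lower (5.41%, close to the 4.56% of all genes) and a median of -0.07. Without the thalamus-rich libraries 37 were positive and 37 negative. Leaving out 1 library gave 0 lower without WT replicate 2 and 17 without WT replicate 1, where 2.79% and 8.09% of all genes were lower. Cholesterol biosynthesis genes had 20 of 24 positive, 4 higher and a median of 0.09 (0.12 without the thalamus-rich libraries, 0.17 in trained mice), and the higher members were 9 without KO replicate 1 and 1 without KO replicate 2. Srebf2, the transcription factor of this pathway, had 295, 245 and 266 CPM in WT and 344, 325 and 309 CPM in KO-labelled libraries (0.28), and the enzyme gene Hmgcs1 was at 0.26.

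The genes beside Mbnl2 on chromosome 14 held 2 of the larger differences. Of 16 genes tested within 2 Mb, measured between gene midpoints, 3 were higher and 0 lower at an unadjusted edgeR p under 0.05, against 6.11% and 4.56% of all genes. Within 5 Mb 3 of 31 were higher and 2 lower, the latter being Gpc6 (log2 fold change -0.54) and Pcca (-0.45). Dzip1, a gene of cilium formation 1.45 Mb before Mbnl2, had 60.5, 62.4 and 47.2 CPM in WT and 125, 115 and 89.7 CPM in KO-labelled libraries (log2 fold change 0.95, and 0.98 in trained mice). Uggt2, 1.31 Mb before it, had 23.5, 22.6 and 21.4 CPM in WT and 58.1, 49.7 and 39.9 CPM in KO-labelled libraries. In both genes KO replicate 3 was the lowest of the KO-labelled libraries and still above every WT library. Hs6st3, a heparan sulfate sulfotransferase gene 0.850 Mb before Mbnl2, overlapped between the groups (0.60, and 0.61 in trained mice). Rap2a, Ipo5, Farp1 and Stk24, on the other side within 1 Mb, had log2 fold changes of 0.15, 0.09, 0.26 and -0.18. With the animal series as a covariate edgeR called Uggt2 (adjusted p = 0.0368) and Dzip1 (adjusted p = 0.00955) beside Cxadr and Anxa6.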

How the data were processed

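Polyadenylated RNA from 12 hippocampal samples was sequenced, per the labels' protocols. The authors deposited raw counts of reads for 24421 gene symbols, 1 column per library. The submitters' processing notes give mm10 as the build and list HTSeq 0.9.1, TopHat2 2.1.1 with Bowtie2 2.3.4.2, DESeq2 1.18.1 and cutadapt 1.18. Whether counting used strand is not given in the sources. The authors also deposited tables of comparisons with, per the file headers, the log2 fold change and its standard error, the p-value before and after adjustment, a test statistic (score) and the normalized mean (signal). Of these, the one of KO against WT in house controls was used.

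Groups came from the labels, 3 mice each. The replicate number is the order of accession and does not pair libraries. Pairs of libraries within a group differed beyond sampling noise (chi-square per degree of freedom from 15.6 to 111), so all were kept as separate samples. The analysis used edgeR 4.0.16 in R 4.3.3. The function filterByExpr (minimum count 10, minimum total 15) left 15622 genes. After TMM scaling a robust quasi-likelihood model of all 12 libraries had 4 group means and 8 residual degrees of freedom. Exact permutation of 3 against 3 libraries cannot give a two-sided p below 10%, so the model over all genes was used. Standard errors are those implied by the F statistic. List means are log2 CPM with a prior count of 2. The test was checked on simulated counts.

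The comparison, the 29 gene lists and the 20 marker lists were chosen with earlier results of these data known. No set test was run, and lists are described by counts and medians beside those of all genes. Named genes are Mbnl1, Mbnl2 and Mbnl3, all called genes, the 12 per direction with the smallest p and the 5 with the largest change, both limited to non-overlapping groups and means from 1 CPM up and passing over clone names, up to 4 members per list by p, and the most abundant marker of a list. Some genes that this rule names are not reported here. The neighbours of Mbnl2, and genes in the closing section where it says so, were chosen after their values were seen. Coordinates and shared exon bases come from the GENCODE annotation of mm10, which matched 95.5% of symbols. Alternatives were DESeq2 1.42.0, limma 3.58.1 voom, other scaling and filters, marker means or animal series as covariates, and fits without single libraries.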

Additional observations from a re-analysis of the deposited data

How the results depend on the processing

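Main counts were 1 gene higher and 1 lower, with 1668 at an unadjusted p under 0.05. DESeq2 called 155 and 47, the 6 house control libraries alone 0 and 0 with 1113 at that p, animal series as a covariate 3 and 1, and the first series alone 1 and 0 with 761. With the choroid plexus, thalamus and striatum marker means as covariates 13 were higher and 12 lower with 2611. Without the thalamus-rich libraries, a choice made after seeing the data, 0 and 0 were called with 804. Leaving out 1 library gave 0 to 11 higher, 0 to 1 lower and 1092 to 3013 at an unadjusted p under 0.05. The 3013 came without WT replicate 1, and the 1092 and 1093 without WT replicates 2 and 3. The 0 higher came without WT replicate 2 and the 11 without WT replicate 1. The number of higher genes was 2 without WT trained replicate 3 or KO trained replicate 3. The Anxa6 call also ended without WT replicate 3, any KO house control replicate, KO trained replicate 1 or 2 or WT trained replicate 3 (adjusted p from just above 0.05 to 0.136). Median-of-ratios scaling, limma voom, other filters, the choroid plexus mean alone as a covariate and edgeR's newer quasi-likelihood method kept 1 and 1. The earlier method, planned as an alternative, is the default of this edgeR version and so the reported fit. In each fit that held trained mice the interaction called 0 genes, and 23 of the 24 genes had their house control sign in trained mice. That number was counted fit by fit. Leaving out house control libraries or changing the scaling or filter can hardly move trained signs, so it is a description. Of 103 genes followed, 101 kept their direction in each of the 23 or 24 settings that tested them. These genes were largely chosen by their house control p or fold change. That choice left little room for a change of sign, so this count is a description. Mbnl3 turned positive in the first series (0.26), with the choroid plexus covariate (0.62) or all 3 (0.73), without the thalamus-rich libraries (2.16) and without WT replicate 3, leaving out 1 library giving -1.21 to 0.16. Ttr turned positive with the choroid plexus covariate (0.41), all 3 (0.35) and without the thalamus-rich libraries (4.08). Ttr is itself among the choroid plexus markers averaged in that covariate, so both covariate fits take out much of its own difference. The causes of the other changes were not tested. No paired analysis was possible because replicate numbers follow accession order and name no shared animal, litter or day. With 3 mice a group, genes near 3 counts (0.113 to 0.152 CPM) cannot be compared.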

Other observations

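With the 3 marker means as covariates, 25 genes passed the edgeR threshold in house controls, and they were looked at after their values were seen. Beside Cxadr, Anxa6, Mbnl2, Apc, Gskip, Uggt2, Nptx2, Sdf4 and Sytl4, described above, these held Arhgap33, a GTPase-activating protein of neurons, at a log2 fold change of 1.05 (edgeR adjusted p = 0.0128) and 0.95 in trained mice. They also held Fabp7, the fatty acid carrier of radial glia and astrocytes, at -0.67 (adjusted p = 0.0242) and -0.12 in trained mice. Gpr17, a receptor of maturing oligodendrocyte progenitors, was at 0.86 (adjusted p = 0.0244) and had 40.1, 51.5 and 52.0 CPM in WT and 62.1, 68.1 and 111 CPM in KO-labelled libraries. Cxcl12, a chemokine made by meningeal and vessel cells, was at -0.58 (adjusted p = 0.0415), and Trpc6, a channel of dentate granule neurons, at -1.48 (adjusted p = 0.0461). The covariates come from the same libraries as the outcome, and this fit leaves fewer residual degrees of freedom than the reported one.

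Of single libraries, KO replicate 1 held 25.1 CPM of Pomc, the precursor of melanocortins and beta-endorphin, against 0.627 to 1.49 CPM in the other 5 house control libraries. Prdm6, a factor of smooth muscle cells, had 1.13, 0.456 and 0.578 CPM in WT and 0, 0 and 0.145 CPM in KO-labelled libraries, all but 1 of the latter at 0. Aplnr, the apelin receptor of vessels, had 1.03, 0.666 and 0.702 CPM in WT and 0.0418, 0.190 and 0.241 CPM in KO-labelled libraries. Prdm6 and Aplnr were near 3 counts (0.113 to 0.152 CPM) in KO-labelled libraries, so they cannot be compared between the groups. Pomc, Prdm6 and Aplnr were chosen after their values were seen.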
